A study of Mus musculus with 48 samples.

Results

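Dbp, Tef, Hlf, Nfil3, Bhlhe40, Bhlhe41 and Ciart are 7 genes for regulators of transcription that sit at the output side and in the repressive side loops of the circadian clock. They were taken by name from the tables of every library, and all 7 were listed in both assays and passed the filter on low values, out of 12423 genes listed in both and 11863 genes tested. Kidneys of male C57BL/6JRj mice aged 11 to 12 weeks, kept for 2 weeks in 12 h of light and 12 h of dark, were collected every 2 h. Zeitgeber time (ZT) counts hours from lights-on at ZT00, and lights went off at ZT12. At each of the 12 times there were 2 pools, each the lysate of 2 mice, and each pool gave 1 library of total RNA (RNA-seq) and 1 library of ribosome-protected fragments (RPF-seq), 48 libraries in all. The labels do not say whether the 2 pools of a time come from different cycles. No genotype or treatment differed between the groups, so that time of day and assay were the comparisons.

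The PAR bZIP factors DBP, TEF and HLF are leucine zipper activators that bind D-box elements, and NFIL3 (also known as E4BP4) is a leucine zipper repressor of the same elements. BHLHE40 and BHLHE41 (DEC1 and DEC2) are basic helix-loop-helix repressors that bind E-boxes, the elements through which BMAL1 and CLOCK activate, and CIART (CHRONO) is a repressor of that complex. In liver and kidney the PAR bZIP proteins are known for driving daily rhythms of detoxification genes.

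The stretches upstream of the transcription start are shown for the members in which a searched element was found, so that its place before the start can be seen. They are RefSeq promoter sequences on GRCm38.p6, the 160 bases before the start, read 5′ to 3′ on the strand of the gene. Capitals mark the E-box CACGTG in Ciart, Bhlhe41 and both Tef promoters, the ROR/REV-ERB element TAGGTCA (here as its reverse complement) in Nfil3, and the cyclic AMP response element TGACGTCA in Hlf.
Ciart, chr3:95882229-95882388, minus strand: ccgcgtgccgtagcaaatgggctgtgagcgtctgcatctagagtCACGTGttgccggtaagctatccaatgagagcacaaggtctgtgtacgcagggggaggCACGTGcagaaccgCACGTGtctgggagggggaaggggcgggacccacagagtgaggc
Bhlhe41, chr6:145865421-145865580, minus strand: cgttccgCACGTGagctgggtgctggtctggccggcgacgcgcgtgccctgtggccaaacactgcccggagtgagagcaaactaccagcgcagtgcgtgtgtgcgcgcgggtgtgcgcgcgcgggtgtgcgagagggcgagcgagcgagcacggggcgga
Tef, chr15:81802513-81802672, plus strand: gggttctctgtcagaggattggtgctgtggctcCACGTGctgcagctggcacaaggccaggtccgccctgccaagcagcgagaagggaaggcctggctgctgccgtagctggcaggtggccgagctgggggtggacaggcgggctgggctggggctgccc
Tef, chr15:81811254-81811413, plus strand: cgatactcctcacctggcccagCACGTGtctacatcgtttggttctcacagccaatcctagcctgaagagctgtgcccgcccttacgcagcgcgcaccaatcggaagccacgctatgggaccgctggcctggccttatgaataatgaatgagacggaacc
Nfil3, chr13:52981040-52981199, minus strand: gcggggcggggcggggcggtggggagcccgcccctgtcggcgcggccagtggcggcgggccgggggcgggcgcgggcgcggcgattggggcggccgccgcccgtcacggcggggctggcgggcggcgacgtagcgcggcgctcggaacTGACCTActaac
Hlf, chr11:90390918-90391077, minus strand: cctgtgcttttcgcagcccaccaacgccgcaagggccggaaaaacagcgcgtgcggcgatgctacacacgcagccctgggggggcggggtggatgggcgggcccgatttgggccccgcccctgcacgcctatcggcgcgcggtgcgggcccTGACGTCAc
Windows from 250 bases before to 50 bases after the start were searched on both strands, 7 windows of 6 members (Bhlhe40 had no entry) and 32851 windows in all. CACGTG stood in 4 of the 7 member windows and in 7.15% of all windows. In Ciart it occurred 3 times, starting 116, 58 and 44 bases before the start, in Bhlhe41 153 bases before it, and in the Tef promoters 127 and 138 bases before it. TAGGTCA was found 12 bases before the start of Nfil3 and in 2.61% of all windows, and TGACGTCA 9 bases before the start of Hlf and in 1.79% of all windows. The letters CACGTT (4.68% of all windows), TTATGTAA (0.938%), TTACGTAA (0.119%) and TTATGCAA (0.743%) were found in no member window. No searched motif was found in the window of Dbp, and sequence outside the windows was not searched. These motifs do not overlap each other in the member windows. The matches are descriptions of letters, not of bound sites.

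The genes lie apart in the genome. In GENCODE coordinates on GRCm38, Dbp spans chr7:45705088-45710203 on the plus strand, Tef chr15:81802421-81826863 on the plus strand and Hlf chr11:90336536-90390895 on the minus strand. Nfil3 spans chr13:52967209-52981073 and Ciart chr3:95878503-95882251, both on the minus strand. The DEC genes share a chromosome, with Bhlhe40 at chr6:108660629-108666925 on the plus strand and Bhlhe41 at chr6:145858243-145865558 on the minus strand. All values below are over coding sequence, which is exonic.

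The libraries were alike in their overall distribution. Spearman correlations over genes between the pools of a time ran from 0.9847 to 0.9957 in RNA-seq and from 0.9841 to 0.9947 in RPF-seq. Read totals were not used here, and the steps between low values put the relative depth of the libraries at 0.598 to 2.037 (RNA-seq) and 0.701 to 1.577 (RPF-seq), where 1 is the median library of the assay. Kidney markers were abundant in all libraries (summed RPKM of 5 proximal tubule markers 4428 to 5273 in RNA-seq), and none of the 3 adrenal cortex markers was listed. In these bulk samples, fewer cells of a type and less RNA per cell cannot be told apart.

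Transcripts of all 7 genes were rhythmic. A gene was called rhythmic when a 24-h cosine curve on log2(RPKM + 0.1) passed a false discovery rate of 0.05 in limma and the fitted peak was at least 1.5-fold over the trough. By this rule 7 of 7 members were called in RNA-seq, where 1210 of 11863 genes (10.2%) were, and 7 of 7 in RPF-seq, where 899 genes (7.58%) were. Both calls held for 504 genes, among them all 7 members. Their median fitted peak-to-trough amplitude can be read against 0.27 (RNA) and 0.24 (RPF) on the log2 scale over all tested genes, while the members ran from 0.82 (Bhlhe40) to 5.40 (Dbp) in RNA and from 0.70 (Hlf) to 5.10 (Ciart) in RPF.

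**Figure D1:**
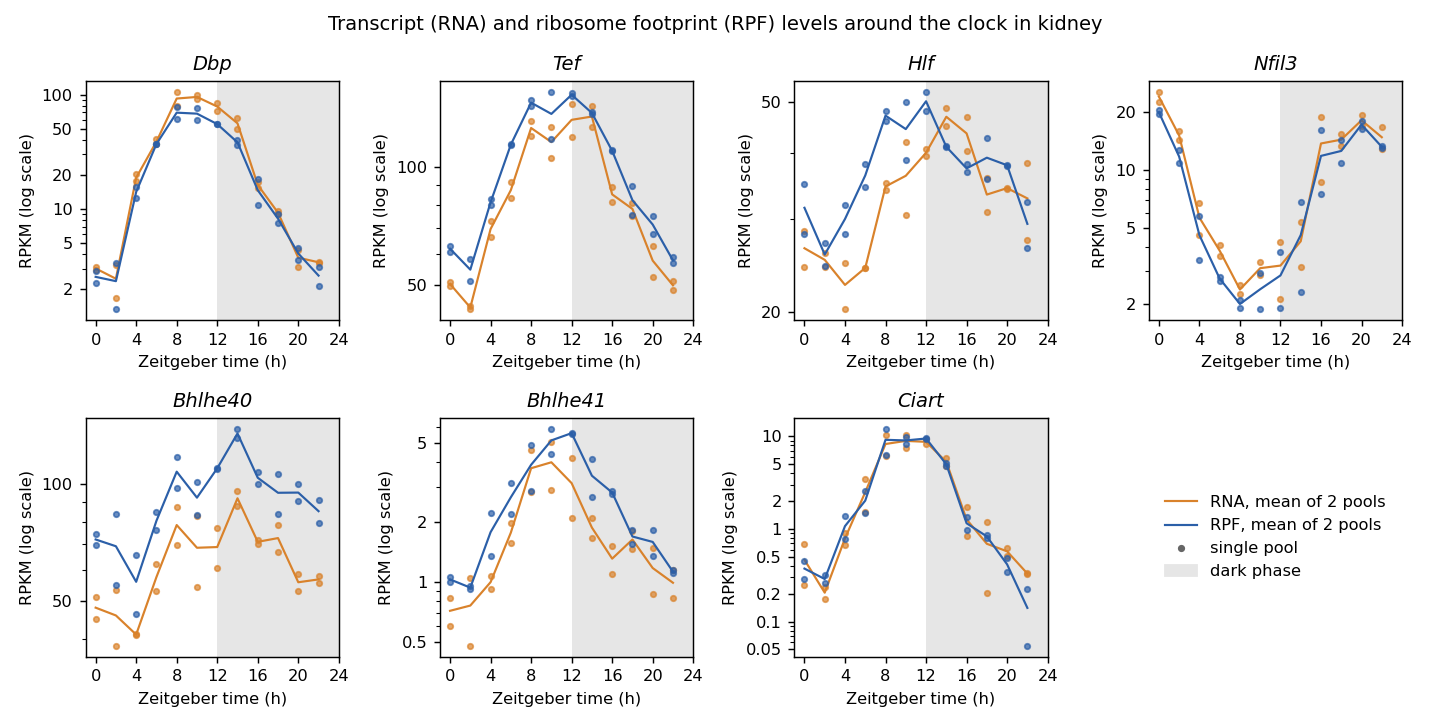
RPKM (log scale) against zeitgeber time for each gene, RNA in orange and RPF in blue; points are single pools, lines join the means of the 2 pools of a time, and grey marks the dark phase. Dbp, Tef, Bhlhe41 and Ciart were high late in the light phase, Hlf and Bhlhe40 near and after lights-off, and Nfil3 from ZT16 to ZT02.

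Among the activators, Dbp had the deepest rhythm. Its RNA measured 3.10 and 2.93 at ZT00, 3.23 and 1.67 at ZT02, 17.5 and 20.1 at ZT04, 36.8 and 40.9 at ZT06, 79.4 and 106 at ZT08, 91.6 and 99.8 at ZT10, 85.1 and 72.6 at ZT12, 62.0 and 50.4 at ZT14, 17.3 and 15.2 at ZT16, 9.02 and 9.54 at ZT18, 4.37 and 3.12 at ZT20 and 3.44 and 3.39 at ZT22 (RPKM, both pools of each time). All 10 pools from ZT06 to ZT14 were above all other pools, the lowest of them at 36.8 RPKM and the highest of the others at 20.1. The fitted fold was 42.1 (95% interval 28.0 to 63.5, n = 24 libraries), the largest of all 11863 genes tested, with a peak at ZT 10.46 ± 0.42 h (95% interval) and an adjusted p of 6.8e-14 from limma. Dbp footprints measured 2.84 and 2.25 at ZT00, 3.34 and 1.33 at ZT02, 12.5 and 15.7 at ZT04, 36.8 and 37.3 at ZT06, 61.6 and 77.9 at ZT08, 76.1 and 60.6 at ZT10, 55.5 and 55.2 at ZT12, 40.2 and 36.5 at ZT14, 18.3 and 10.9 at ZT16, 7.48 and 8.98 at ZT18, 3.61 and 4.55 at ZT20 and 3.09 and 2.13 at ZT22. The same 10 pools were again above all others, at 36.5 RPKM or more against at most 18.3. The footprint fold was 33.9 (22.1 to 52.1) with a peak at ZT 10.47 ± 0.47 h (adjusted p = 2.7e-12). At the trough the Dbp values rested on few reads: the steps of the file put the lowest library at about 25 reads in RNA-seq and 44 in RPF-seq, and at ZT02 the pools differed 1.93-fold in RNA and 2.52-fold in footprints.

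Tef, the paralogue with the highest level, moved far less. Its RNA ran from 43.5 to 144 RPKM over the 24 libraries (median 81.2), with 44.4 and 43.5 at ZT02, the lowest time, and 142 and 126 at ZT14, the highest. Its footprints ran from 51.4 to 155 RPKM (median 99.4), with 58.2 and 51.4 at ZT02 and 151 and 154 at ZT12. All pools from ZT08 to ZT14 were above those of the other times in both assays. The fitted folds were 2.87 (2.50 to 3.31) in RNA and 2.72 (2.42 to 3.07) in RPF, with adjusted p-values of 1.0e-11 and 3.4e-12. Replicate pools of Tef differed by a typical 1.12-fold in RNA and 1.11-fold in RPF, the smallest replicate spread of the 7 members.

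Hlf had a shallow rhythm that was also the latest of the activators. Its RNA measured 24.3 and 28.5 at ZT00, 24.4 and 25.9 at ZT02, 24.8 and 20.3 at ZT04, 24.2 and 24.3 at ZT06, 34.1 and 35.1 at ZT08, 41.9 and 30.5 at ZT10, 40.6 and 39.4 at ZT12, 45.1 and 48.6 at ZT14, 46.8 and 40.3 at ZT16, 35.9 and 30.9 at ZT18, 34.4 and 34.3 at ZT20 and 38.3 and 27.4 at ZT22. The pools from ZT00 to ZT06 stayed at 28.5 RPKM or below, and those at ZT12 to ZT16 at 39.4 or above, with 1 of the ZT10 pools (41.9) within the latter range. The fitted fold was 1.81 (1.56 to 2.10) with a peak at ZT 14.65 ± 0.95 h (adjusted p = 8.4e-07). Hlf footprints measured 34.95 and 28.1 at ZT00, 27.0 and 24.4 at ZT02, 31.9 and 28.1 at ZT04, 38.1 and 34.4 at ZT06, 46.0 and 48.1 at ZT08, 50.03 and 38.7 at ZT10, 52.2 and 48.0 at ZT12, 41.0 and 41.2 at ZT14, 38.1 and 36.8 at ZT16, 42.7 and 35.7 at ZT18, 37.9 and 38.0 at ZT20 and 32.4 and 26.4 at ZT22. Here the highest time was ZT12, ZT08 was already at 46.0 and 48.1, and by ZT14, when the transcript was at its highest mean, footprints were at 41.0 and 41.2. The footprint fold was 1.62 (1.398 to 1.88) with a peak at ZT 12.29 ± 1.17 h (adjusted p = 3.6e-05).

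Nfil3, the repressor of D-box elements, ran opposite to Dbp. Its RNA measured 25.6 and 22.8 at ZT00, 16.03 and 14.3 at ZT02, 6.76 and 4.58 at ZT04, 3.56 and 4.07 at ZT06, 2.52 and 2.27 at ZT08, 3.33 and 2.84 at ZT10, 2.13 and 4.25 at ZT12, 3.13 and 5.41 at ZT14, 8.68 and 18.9 at ZT16, 15.5 and 13.4 at ZT18, 19.5 and 16.9 at ZT20 and 12.9 and 16.8 at ZT22. All pools from ZT06 to ZT12 were at 4.25 RPKM or below, and all from ZT16 to ZT02 were at 8.68 or above. The fitted fold was 8.43 (5.80 to 12.3), the rank 7 amplitude of all tested genes, with a peak at ZT 21.51 ± 0.67 h (adjusted p = 9.1e-10). Nfil3 footprints measured 20.5 and 19.6 at ZT00, 10.9 and 12.7 at ZT02, 5.78 and 3.41 at ZT04, 2.79 and 2.66 at ZT06, 2.11 and 1.91 at ZT08, 1.89 and 2.91 at ZT10, 1.92 and 3.75 at ZT12, 2.33 and 6.86 at ZT14, 7.56 and 16.2 at ZT16, 10.9 and 14.3 at ZT18, 16.5 and 18.1 at ZT20 and 13.1 and 13.4 at ZT22. The footprint fold was 9.17 (6.20 to 13.6), again rank 7, with a peak at ZT 21.22 ± 0.68 h (adjusted p = 2.0e-09). The pools of Nfil3 disagreed most on the rising flank, by 2.18-fold at ZT16 in RNA and by 2.94-fold at ZT14 in footprints, where replicate 2 was the higher of the pools in both assays. Nfil3 peaked 11.0 h (10.5 to 11.6) after Dbp in RNA and 10.8 h (10.1 to 11.4) after it in footprints. These intervals leave out 12 h but rest on the curves fitted to both replicate series. Taken alone, replicate 1 put the Nfil3 peak at ZT 22.06 in RNA and 22.02 in footprints, and replicate 2 at ZT 20.91 and 20.36. The highest measured time of Nfil3 was ZT00 in both assays, after the fitted peaks.

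Of the E-box repressors, Ciart had the deepest rhythm. Its RNA measured 0.683 and 0.246 at ZT00, 0.237 and 0.174 at ZT02, 0.679 and 0.906 at ZT04, 1.53 and 3.47 at ZT06, 6.10 and 10.5 at ZT08, 10.3 and 7.56 at ZT10, 9.29 and 8.19 at ZT12, 4.85 and 5.78 at ZT14, 1.71 and 0.831 at ZT16, 0.204 and 1.18 at ZT18, 0.517 and 0.631 at ZT20 and 0.324 and 0.336 at ZT22. All 8 pools from ZT08 to ZT14 were at 4.85 RPKM or above and all others at 3.47 or below. The fitted fold was 27.4 (15.1 to 49.7), the rank 2 amplitude, with a peak at ZT 10.72 ± 0.69 h (adjusted p = 1.5e-09). Ciart footprints measured 0.457 and 0.290 at ZT00, 0.316 and 0.261 at ZT02, 1.37 and 0.776 at ZT04, 1.47 and 2.58 at ZT06, 6.24 and 12.1 at ZT08, 9.76 and 8.33 at ZT10, 9.33 and 9.67 at ZT12, 5.22 and 4.79 at ZT14, 1.34 and 0.965 at ZT16, 0.858 and 0.805 at ZT18, 0.488 and 0.343 at ZT20 and 0.0546 and 0.227 at ZT22. The footprint fold was 34.4 (22.1 to 53.4), the largest of all tested genes, with a peak at ZT 10.62 ± 0.48 h (adjusted p = 3.4e-12). These troughs rest on about 3 reads in the lowest RNA library and about 1 read in the lowest footprint library, and the ZT18 pools differed 5.79-fold in RNA. With a pseudocount of 1 in place of 0.1 the Ciart amplitude was 3.10 in RNA and 3.22 in RPF on the log2 scale, against 4.78 and 5.10, so its fold and rank are set in part by the lowest values.

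The DEC genes differed from each other in level and depth of rhythm. Bhlhe41 RNA was at 0.833 and 0.600 RPKM at ZT00 and at 5.07 and 2.91 at ZT10, with 0.478, 1.502 and 5.07 as the lowest, median and highest library. Its footprints were at 0.918 and 0.956 at ZT02 and at 5.63 and 5.56 at ZT12, with 0.918, 2.204 and 5.90 as the lowest, median and highest library. The fitted folds were 3.82 (2.57 to 5.69) in RNA and 4.69 (3.70 to 5.95) in RPF (adjusted p = 7.3e-06 and 5.3e-10), and about 9 reads lay behind the lowest RNA value. With a pseudocount of 1 the amplitude of Bhlhe41 was 1.27 in RNA and 1.602 in RPF on the log2 scale, against 1.93 and 2.23.

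Bhlhe40 was abundant and moved little. Its RNA was lowest at ZT04, at 41.1 and 40.9 RPKM, and highest at ZT14, at 87.7 and 96.2, around a median library of 59.7. Its footprints were lowest at ZT04 as well, at 65.8 and 46.3, and highest at ZT14, at 131 and 139, around a median library of 90.6. Pools at ZT08 to ZT12 overlapped those at ZT18 in both assays. The fitted folds were 1.76 (1.45 to 2.13) in RNA and 1.77 (1.46 to 2.15) in RPF, with adjusted p-values of 3.4e-05 and 7.8e-05.

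**Figure D2:**
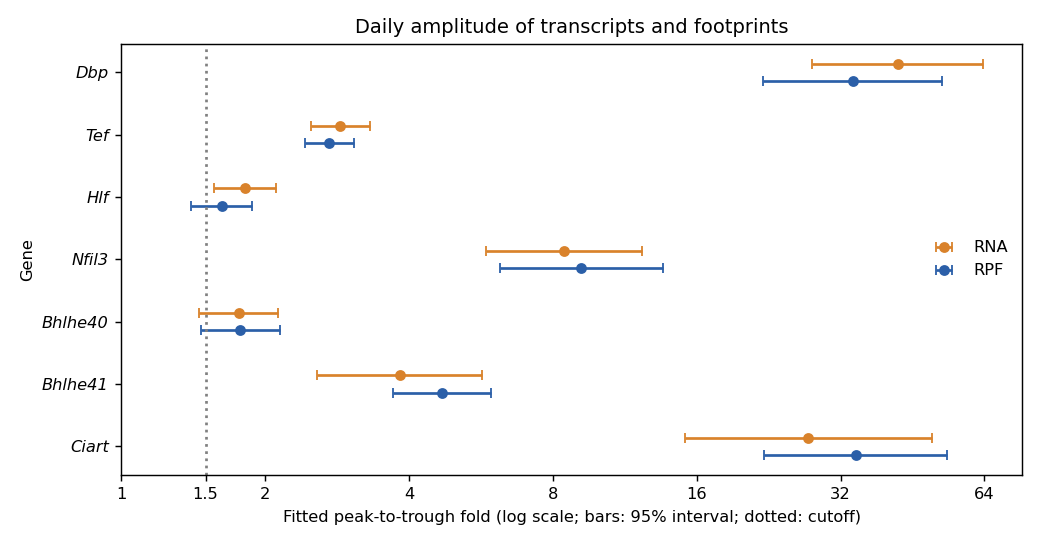
Fitted peak-to-trough fold (log axis) of each gene for RNA (orange) and RPF (blue), with 95% intervals over 24 libraries; the dotted line is the 1.5-fold cutoff. Dbp and Ciart were at 27.4 to 42.1, Nfil3 at 8.43 and 9.17, and Hlf and Bhlhe40 at 1.62 to 1.81, close to the cutoff.

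Transcript and footprint amplitudes did not differ beyond the interval for any of the 7 genes. RPF minus RNA amplitude on the log2 scale was -0.31 (95% interval -0.63 to 0.01) for Dbp, -0.08 (-0.23 to 0.07) for Tef, -0.16 (-0.43 to 0.11) for Hlf and 0.12 (-0.17 to 0.41) for Nfil3. It was 0.01 (-0.19 to 0.21) for Bhlhe40, 0.29 (-0.28 to 0.87) for Bhlhe41 and 0.33 (-0.38 to 1.04) for Ciart. All 7 intervals hold 0, and those of Bhlhe41 and Ciart would also hold a sizeable difference.

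The transcript peaks followed an order from late day to late night. Dbp peaked at ZT 10.46, Ciart at 10.72, Bhlhe41 at 11.01 ± 1.13 h and Tef at 11.43 ± 0.51 h, all before lights-off. Bhlhe40 followed at ZT 13.60 ± 1.29 h, then Hlf at 14.65 and Nfil3 at 21.51. Of the neighbours in this order, Ciart was 0.26 h after Dbp (-0.38 to 0.90), Bhlhe41 0.29 h after Ciart (± 1.11), Tef 0.42 h after Bhlhe41 (-0.67 to 1.51) and Hlf 1.05 h after Bhlhe40 (-0.30 to 2.40), so that these neighbours were not told apart. Bhlhe40 was 2.16 h after Tef (0.97 to 3.35) and Nfil3 6.86 h after Hlf (5.72 to 8.01), beyond the interval. Within the PAR bZIP family, Tef peaked 0.97 h (0.60 to 1.33) after Dbp and Hlf 3.21 h (2.18 to 4.24) after Tef. The intervals are 95% intervals from the paired residuals of both genes over 24 libraries and are not adjusted for the 21 pairs, of which 16 lay apart from 0 in RNA and 18 in RPF.

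In footprints the order was Dbp at ZT 10.47, Ciart at 10.62, Tef at 11.17 ± 0.46 h, Bhlhe41 at 11.29 ± 0.59 h, Hlf at 12.29, Bhlhe40 at 14.12 ± 1.28 h and Nfil3 at 21.22. Hlf and Bhlhe40, not told apart in RNA, were set apart here: Bhlhe40 footprints peaked 1.83 h (0.39 to 3.28) after those of Hlf. The span of the PAR bZIP peaks was shorter in footprints, with Tef 0.70 h (0.28 to 1.11) after Dbp and Hlf 1.12 h (0.14 to 2.11) after Tef.

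**Figure D3:**
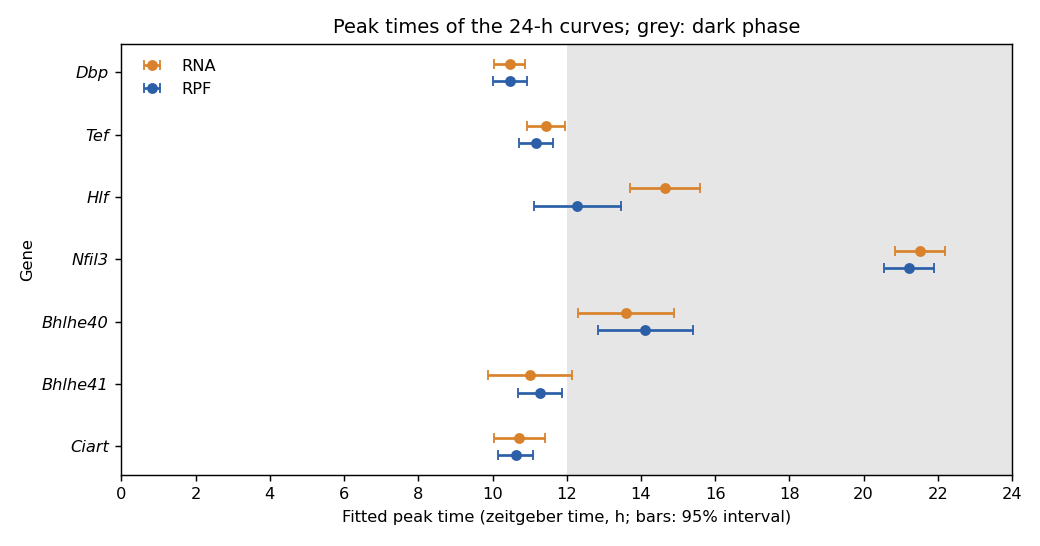
Fitted peak times on a 24-h axis for RNA (orange) and RPF (blue), with 95% intervals; grey marks the dark phase. RNA and RPF points lie within 0.53 h of each other for every gene but Hlf, whose footprint peak at ZT 12.29 is left of its transcript peak at ZT 14.65.

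Hlf footprints peaked before Hlf transcripts. The footprint peak was 2.36 h earlier (difference -2.36 h, 95% interval -3.70 to -1.01, adjusted p = 0.031 by a Wald test over the 504 genes rhythmic in both assays). The call was made for 1 of 7 members and for 49 of the 504 genes (9.72%), 32 of them with earlier and 17 with later footprints, and the size of the Hlf difference was rank 36 of 504. The other 6 differences were 0.01 h (-0.23 to 0.24) for Dbp, -0.27 h (-0.65 to 0.11) for Tef, -0.29 h (-0.64 to 0.06) for Nfil3, 0.53 h (-0.40 to 1.45) for Bhlhe40, 0.27 h (-0.84 to 1.38) for Bhlhe41 and -0.10 h (-0.67 to 0.46) for Ciart, with adjusted p-values of 0.34 to 0.99. The Hlf interval lies below all 6 others, although the difference between genes was not itself tested. Taken alone, replicate 1 gave -2.42 h and replicate 2 gave -2.30 h for Hlf, and leaving out any 1 pool gave -2.64 to -2.12 h (adjusted p = 0.016 to 0.0498). The call was lost when the residuals of the assays were taken as independent (adjusted p = 0.078) and with a single replicate series, with adjusted p-values of 0.32 for replicate 1 and 0.23 for replicate 2, where 0 genes and 1 gene were called in all.

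The same difference showed in the translation efficiency (TE) of Hlf, the ratio of RPF to RNA in a pool. By pool it was 1.44 and 0.984 at ZT00, 1.11 and 0.944 at ZT02, 1.29 and 1.39 at ZT04, 1.57 and 1.42 at ZT06, 1.35 and 1.37 at ZT08, 1.19 and 1.27 at ZT10, 1.28 and 1.22 at ZT12, 0.910 and 0.847 at ZT14, 0.814 and 0.912 at ZT16, 1.19 and 1.15 at ZT18, 1.10 and 1.11 at ZT20 and 0.845 and 0.965 at ZT22. All 10 pools from ZT04 to ZT12 were at 1.19 or above, and all 4 pools at ZT14 and ZT16 at 0.912 or below. The ratio then rose to 1.19 and 1.15 at ZT18 and fell again to 0.845 and 0.965 at ZT22. A single 24-h curve cannot follow that rise. The fitted TE amplitude was 0.50 on the log2 scale, a fold of 1.41 (1.18 to 1.69), with a peak at ZT 6.26 ± 2.00 h (adjusted p = 0.021 from limma). A TE rhythm was called for 2028 of 11863 genes (17.1%), so that 1 of 7 members is close to the background share. TE of the other 6 members had fitted folds of 1.08 to 1.28 and adjusted p-values of 0.27 to 0.67, and the interval of Ciart reached 2.09-fold. The Hlf call held without any 1 pool (adjusted p = 0.012 to 0.045) and was lost when the pool was left out of the model (adjusted p = 0.05004) and when time was a 12-level factor (adjusted p = 0.056). It was also lost with replicate 1 alone (adjusted p = 0.21) or replicate 2 alone (adjusted p = 0.31), at a false discovery rate of 0.01 and with a TE fold cutoff of 1.5.

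**Figure D4:**
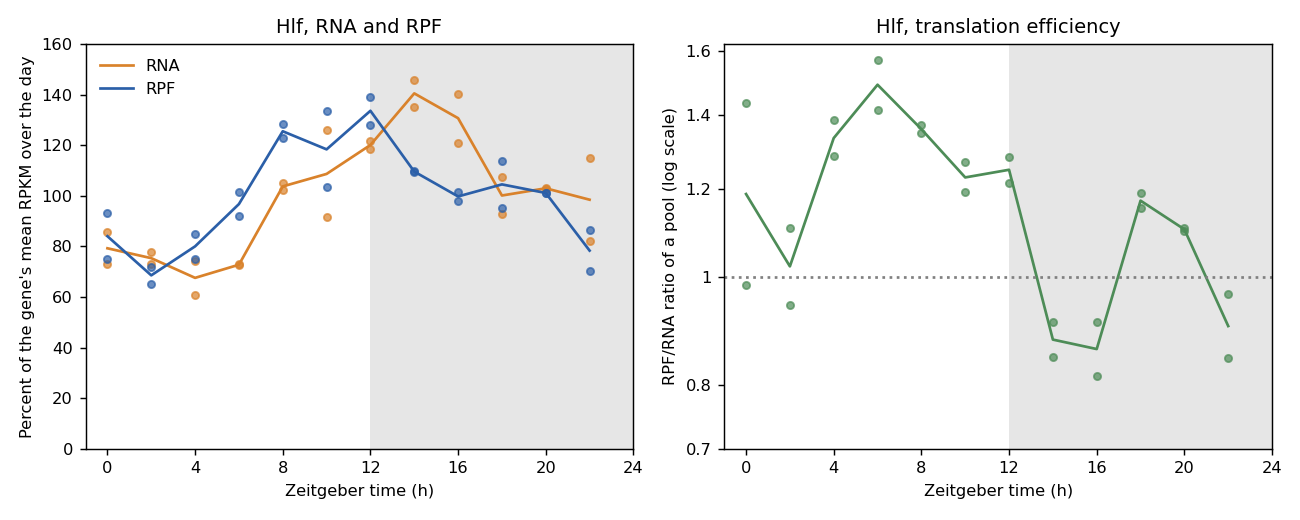
Left, Hlf RNA (orange) and RPF (blue) as percent of the gene's own mean RPKM over the day; right, the RPF/RNA ratio of each pool on a log axis, against zeitgeber time, with points for pools and lines for means of 2 pools. Relative to its mean, RPF was above RNA from ZT04 to ZT12, and by less at ZT00 (84.0% against 79.2%) and ZT18 (104.5% against 100.1%). The ratio fell from 1.28 and 1.22 at ZT12 to 0.910 and 0.847 at ZT14.

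Markers of fat cells changed over the day as well, and 2 of 2 tested passed the rhythm call in both assays, where 4.25% of all tested genes did. The summed level of 3 adipocyte markers (Adipoq, Plin1 and Cidec), all listed and none at 0 in any library, ranged from 0.532 to 9.03 RPKM in RNA-seq and from 0.688 to 16.6 in RPF-seq, highest at ZT04 in both assays and lowest at ZT16 and ZT20. Their RNA sum was at 9.03 and 3.33 at ZT04 and at 6.72 and 4.83 at ZT06, when the TE of Hlf was high. It was at 0.532 and 0.915 at ZT16, when the TE of Hlf was low. Other times went the other way, with 1.66 and 1.75 at ZT08, when that TE was still high. At ZT14, when that TE was low, the sum was at 4.85 and 1.43. Collecting duct markers were highest at ZT14 in RNA and ZT16 in RPF, with ratios of the highest to the lowest time of 1.58 and 1.79. By the same measure the ratios in RNA and RPF were 2.24 and 2.41 for Bhlhe40 and 2.08 and 1.95 for Hlf. Of the collecting duct markers, 2 of 3 passed the rhythm call in RNA (10.2% of all tested genes) and 1 of 3 in RPF (7.58%). Stromal markers were highest at ZT06 and lowest at ZT18, with ratios of 1.80 and 1.81. The part of these cell types in the member profiles was not tested.

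No member departed from a single cosine by the test of an added 12-h component. None of the 7 passed in RNA-seq, where 71 of 11863 genes (0.598%) did in limma, nor in RPF-seq, where 83 genes (0.7%) did. The members nearest to passing were Bhlhe41 (adjusted p = 0.067) and Ciart (adjusted p = 0.13) in RNA. In footprints they were Dbp (adjusted p = 0.14) and Hlf (adjusted p = 0.19). With a pseudocount of 1 Ciart passed in both assays (adjusted p = 0.019 in RNA and 0.024 in RPF), and without replicate 1 of ZT12 Bhlhe41 passed in RNA (adjusted p = 0.035). On the curve with both terms, Hlf peaked at ZT 13.2 in RNA and at ZT 10.1 in footprints, and Bhlhe41 at ZT 9.5 and 10.6.

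Levels per coding length spanned a wide range among the members. Mean RNA levels over 24 libraries, with the SD that includes the daily change, were 85.7 ± 33.3 RPKM for Tef, 63.1 ± 15.9 for Bhlhe40, 34.9 ± 36.1 for Dbp, 33.3 ± 8.08 for Hlf, 10.3 ± 7.42 for Nfil3, 3.18 ± 3.62 for Ciart and 1.84 ± 1.25 for Bhlhe41. The median over all tested genes was 16.5 RPKM. Tef and Bhlhe40 were thus among the higher expressed genes, at percentiles 87.4 and 83.0, and Bhlhe41 at percentile 7.65. The order of some pairs changed with the time of day, and mean levels were not tested between genes. Dbp was above Hlf in 10 of 24 RNA libraries, which were the pools from ZT06 to ZT14. Ciart was above Bhlhe41 in 10 of 24, among them every pool from ZT08 to ZT14. Footprint levels were 100.4 ± 36.1 RPKM for Tef, 91.8 ± 22.2 for Bhlhe40, 37.5 ± 7.75 for Hlf, 26.4 ± 25.9 for Dbp, 8.83 ± 6.44 for Nfil3, 3.25 ± 3.87 for Ciart and 2.64 ± 1.62 for Bhlhe41. Tef exceeded Bhlhe40 in 14 of 24 footprint libraries, among them every pool from ZT04 to ZT12, and was below it in every pool from ZT20 to ZT02. Bhlhe40 exceeded Hlf in 24 of 24.

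The ratio of mean RPF to mean RNA differed between the members in level. It was 1.46 for Bhlhe40, with RPF above RNA in 24 of 24 pools, 1.43 for Bhlhe41 (21 of 24) and 1.17 for Tef (23 of 24). It was 1.12 for Hlf (16 of 24), 1.02 for Ciart (12 of 24), 0.861 for Nfil3 (5 of 24) and 0.757 for Dbp (3 of 24). Among all tested genes, with a median of 0.956, Bhlhe40 was at percentile 80.9 and Dbp at percentile 36.1. By the median library, Hlf was above Dbp in RNA (34.2 against 17.4 RPKM) and in footprints (37.9 against 14.1). The 3 Dbp pools with RPF above RNA were from ZT02, ZT16 and ZT20, outside the daily high.

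The profiles of some members resembled each other across the 24 libraries, which share the times of day. Pearson correlations of log2(RPKM + 0.1) in RNA were 0.951 for Dbp and Tef, 0.937 for Dbp and Ciart, 0.851 for Dbp and Bhlhe41, and 0.376 for Dbp and Hlf. Nfil3 correlated negatively with Dbp (-0.925), Tef (-0.835) and Ciart (-0.870). In footprints Hlf stood nearer to the early genes, at 0.781 with Dbp and 0.852 with Tef (0.581 in RNA), and farther from Nfil3 (-0.578 against -0.203 in RNA). Hlf and Bhlhe40 were alike in RNA (0.766) and in footprints (0.708).

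Outside the members, the 3 genes most like each of them in RNA were taken by correlation. Per3, a Period gene, led the list for Tef (r = 0.971 in RNA, 0.944 in RPF), Bhlhe41 (0.853 and 0.941) and Ciart (0.908 and 0.899), and was next after Nr1d2, a REV-ERB repressor (0.958 and 0.956), for Dbp (0.940 and 0.924). Hlf was closest to Per2 (0.9003 in RNA and 0.705 in RPF), Tsc22d3 (0.878 and 0.551) and Prnp (0.877 and 0.669), all with the lower r in footprints. Nfil3 was closest to Ccdc141 (0.930 and 0.834), Rhobtb1 (0.919 and 0.923) and Uhrf2 (0.916 and 0.704). Bhlhe40 was closest to the kinase gene Sik1 (0.920 and 0.820), Lrrc58 (0.880 and 0.620) and Pdxk (0.862 and 0.837). The remaining genes were Pnpla7 for Dbp (0.914 and 0.919), Por and Clcn2 for Tef (0.925 and 0.913 in RNA), Slc2a5 and Castor1 for Bhlhe41 (0.845 and 0.844 in RNA), and Dnajc6 and Upp2 for Ciart (0.894 and 0.886 in RNA).

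Genes around the members in the clock were read from 5 lists. Over all tested genes, 4.25% were called in both assays. Of 8 E-box activators and PER/CRY repressors, all 8 were, with a median amplitude of 2.71 in RNA and 2.68 in RPF on the log2 scale. Arntl, which encodes BMAL1, had a 24.98-fold RNA rhythm with a peak at ZT 22.47 ± 0.52 h, and Npas2, a partner of BMAL1, had a 24.9-fold rhythm with a peak at ZT 23.73 ± 0.51 h. Of 7 tested clock genes with D-boxes, 6 were called in both assays, with medians of 2.61 and 2.63, and Rora was not (RNA fold 1.14, adjusted p = 0.18). Nr1d1 had a 21.7-fold RNA rhythm with a peak at ZT 7.52 ± 0.53 h, Per2 a 7.73-fold rhythm at ZT 14.65 ± 0.56 h and Cry1 a 7.04-fold rhythm at ZT 18.46 ± 0.60 h. These lists share Per1, Per2, Per3 and Cry1.

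The list of genes known as outputs of PAR bZIP factors held called and uncalled genes. Of 7 tested, 3 were called in RNA and 3 in RPF, 2 of them in both, where over all tested genes 10.2%, 7.58% and 4.25% were. Their median amplitudes were 0.60 and 0.74 on the log2 scale, against 0.27 and 0.24 over all tested genes. Cyp2a5, a cytochrome P450 gene, had a 2.13-fold RNA rhythm with a peak at ZT 15.12 ± 1.84 h, and Alas1, the rate-limiting enzyme of heme synthesis, a 1.95-fold rhythm at ZT 14.74 ± 1.00 h. Por, the P450 reductase, had a 1.51-fold RNA rhythm at ZT 11.12 ± 1.02 h, and its footprint fold of 1.27 was under the cutoff.

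Other genes of the same protein classes can be read against the same shares of all genes (10.2% in RNA and 7.58% in RPF). Of 9 Orange-domain bHLH and Id genes, 4 were called in RNA and 2 in RPF, with medians of 0.63 and 0.41. Id1 had a 1.78-fold RNA rhythm with a peak at ZT 12.34 ± 2.02 h, Id3 a 1.74-fold rhythm at ZT 13.997 ± 2.09 h, and Id2 a 1.63-fold rhythm at ZT 17.25 ± 1.17 h that was not called in footprints. Of 18 tested bZIP genes outside the members, 2 were called in both assays, with medians of 0.35 and 0.38. They were Junb (1.76-fold in RNA, peak at ZT 9.05 ± 1.71 h) and Atf4 (1.67-fold, ZT 18.05 ± 0.98 h).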

How the data were processed

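Ribosome profiling and matched RNA sequencing were analysed from mouse kidney, with groups taken from the assay and timepoint in the labels. The deposited values are RPKM per gene over coding sequence. The authors mapped reads with TopHat2 2.0.11 and Bowtie2 2.2.1 to GRCm38.p2 (tools and builds per the submitters' processing notes), counted them on Ensembl 75 coding sequences, scaled counts by the upper quantile and divided by length and library size. Such scaling keeps no total per cell, so all changes are relative to the other genes (upper quartiles 37.8 to 39.3 in RNA-seq and 36.4 to 37.7 in RPF-seq). Of 12423 genes listed in both assays, 12373 matched a gene symbol, and 11863 genes, those whose median RPKM reached 0.5 in each assay, were tested.

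Rhythms were fitted with limma 3.58.1 (R 4.3.3, variance trend) as a 24-h cosine and sine on log2(RPKM + 0.1), with Benjamini-Hochberg adjustment over all tested genes. The pseudocount makes folds of low genes too small. TE was log2 RPF minus log2 RNA of the same pool. Peak differences were tested with a Wald test (delta method, 21 degrees of freedom). RNA and RPF libraries of a pool come from the same lysate by design, and their deviations from the time means correlated at 0.106 to 0.446 (median 0.247) over the 12 times. Replicates are pools of 2 mice. The p-values rest on the spread of pools around the fitted curve, which also holds any misfit of that curve. The 24-h cosine fit, its use on TE and the Wald test were tried on simulated data. The 12-h component test, the amplitude differences and the alternatives were not. No count model was run on the RPKM, and numbers of reads behind low values were read from the steps between values over the longest coding sequence, so they are estimates. Intervals are 95% intervals.

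The members, gene lists and tests were chosen with earlier results of these data known. All 7 members were named in each comparison. For likeness, the 3 genes with the highest RNA correlation were named per member, and from each list at most 3 called genes with the largest RNA fold. Rora was added after its values were seen. Alternatives were other pseudocounts, filters, scalings, curve shapes, thresholds and left-out pools. Liver data of the study were not analysed here. Figures used matplotlib 3.10.9.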

Additional observations from a re-analysis of the deposited data

Results flagged for a closer look

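For Hlf the daily curves of transcript and footprint differed by a test of the difference itself. The paper already lists Hlf among its kidney examples of footprints ahead of RNA, from the same libraries. The TE rhythm of Hlf had an amplitude of 0.50 on the log2 scale (adjusted p = 0.021, limma, 24 pools), in a background where 17.1% of genes passed the same test. The Hlf footprint peak differed from the transcript peak by -2.36 h (adjusted p = 0.031, Wald test), and the replicate series alone gave -2.42 h and -2.30 h, neither past the threshold (adjusted p = 0.32 and 0.23). With the assays taken as independent the peak call was lost (adjusted p = 0.078). Both values describe the same 24 pools and are not independent of each other. Leaving out any 1 pool kept both calls (adjusted p = 0.012 to 0.045 for TE and 0.016 to 0.0498 for the peak).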

How the results depend on the processing

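Every member kept its rhythm call in RNA and in RPF under all alternatives in which it was tested; when the median RPKM had to reach 2, Ciart and Bhlhe41 dropped out and 5 members were left. With a pseudocount of 1, 781 genes (RNA) and 590 genes (RPF) were rhythmic, and 1 member (Ciart) had a 12-h component in each assay. Without a fold cutoff 5761 (RNA) and 3663 (RPF) genes passed, and with time as a 12-level factor 2291 in RNA. A TE rhythm was called for 101 genes with time as a factor, 560 at a false discovery rate of 0.01, 444 at a TE fold of at least 1.5 and 964 without the pool, with 0 members in each case. With the assays taken as independent, 11 genes and 0 members differed in peak time. Leaving out a pool or a whole replicate series gave 722 to 1430 rhythmic genes in RNA, 370 to 956 in RPF, 0 to 2299 in TE (members 0 to 1) and 0 to 50 peak differences (members 0 to 1). It gave 0 to 243 genes with a 12-h component in RNA (members 0 to 1) and 0 to 179 in RPF. The zeros among the gene counts came from leaving out a whole series, which leaves 12 pools. On the curve with both harmonics, the Hlf footprint peak was 3.1 h before the RNA peak, a value with no test.

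Deviations of same-numbered pools correlated between times at -0.181 to 0.48 in RNA (mean 0.029) and -0.204 to 0.185 in RPF (mean 0.02). These values cannot show whether a replicate number stands for a shared day or batch, and the labels do not say. With a replicate block the counts were 1214 (RNA), 895 (RPF), 2161 (TE), 47 (peak difference), 70 and 86 (12-h component), with the member counts of 7, 7, 1, 1, 0 and 0 as without it, and the Hlf TE amplitude was 0.50 (adjusted p = 0.022). Low read numbers limit the troughs of Ciart and Bhlhe41.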
